A study of Mus musculus with 13 samples.

Results

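The T cell receptor genes described here, 8 of the 53379 genes in the count table, were followed in CD45- cells of the mouse thymus before and after radiation injury. They are the constant genes of the gamma chain (Tcrg-C1, Tcrg-C2 and Tcrg-C4), the delta chain (Trdc), the alpha chain (Trac) and the beta chain (Trbc1 and Trbc2), together with Sox13, a transcription factor of the gamma-delta lineage. They were matched by mouse symbol and were selected on their levels in these same libraries, so their levels and fold changes are given as a description and support nothing on their own. All 8 passed the filter on low counts, which kept 19984 genes. Bulk polyA RNA was sequenced from thymic stroma of wild type C57BL/6 mice aged 2 months, depleted of CD45+ cells with magnetic beads and sorted. There were 4 steady state libraries, labelled untreated and carrying PBS in the column names, and 3 libraries from each of days 1, 4 and 7 that followed a sublethal dose of total body irradiation (TBI). The question was how the thymic stroma responds to acute damage. The study counts individual mice as biological replicates, while the labels do not tie each library to a mouse, so the tests measure the spread between these libraries, which may in part be technical.

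Thymocytes assemble their antigen receptors from gene segments. A variable and a joining segment, with a diversity segment in between for beta and delta, are joined in the DNA and then spliced to a constant gene, which encodes the stem of the chain and its membrane anchor. Alpha pairs with beta in most thymocytes, and gamma pairs with delta in a separate lineage that leaves the thymus early and settles in skin, gut and other barrier tissues. Constant genes can also be transcribed from loci that have not been joined, so RNA of a constant gene is not by itself RNA of a finished receptor.

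The first exons of the constant genes are shown because their likeness decides how well reads can be told apart between neighbours. Trbc1 and Trbc2 differ at 1 of the 375 bases of the first exon (99.7% identity). Capitals mark that base, read on the + strand of GRCm38 from GENCODE M21 transcripts, at chr6:41538432-41538521 for Trbc1 and chr6:41546944-41547033 for Trbc2.
Trbc1: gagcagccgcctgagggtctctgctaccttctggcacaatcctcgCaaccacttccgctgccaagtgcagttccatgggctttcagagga
Trbc2: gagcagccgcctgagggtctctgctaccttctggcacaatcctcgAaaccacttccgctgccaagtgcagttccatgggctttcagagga
For the gamma genes the first 90 bases of the first exon are given, at chr13:19214103-19214192 on the + strand for Tcrg-C1, chr13:19307462-19307551 on the - strand for Tcrg-C2 and chr13:19344558-19344647 on the + strand for Tcrg-C4. Capitals mark the 13 positions at which the 3 genes are not all alike.
Tcrg-C1: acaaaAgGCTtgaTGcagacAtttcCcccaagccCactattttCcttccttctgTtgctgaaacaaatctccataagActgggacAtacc
Tcrg-C2: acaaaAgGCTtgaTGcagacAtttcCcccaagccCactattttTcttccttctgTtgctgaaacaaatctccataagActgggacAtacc
Tcrg-C4: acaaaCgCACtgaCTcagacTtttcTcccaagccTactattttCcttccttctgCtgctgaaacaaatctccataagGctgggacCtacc
Over the whole first exon of 330 bases, Tcrg-C1 and Tcrg-C2 differ at 9 positions (97.3% identity), and Tcrg-C1 and Tcrg-C4 at 59 (82.1%). The first 90 bases of Trdc (chr14:54142851-54142940, + strand) and of Trac (chr14:54220521-54220610, + strand) are shown as the single constant genes of their chains. They carry no capitals.
Trdc: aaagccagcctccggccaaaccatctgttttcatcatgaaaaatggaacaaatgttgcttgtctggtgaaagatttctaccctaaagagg
Trac: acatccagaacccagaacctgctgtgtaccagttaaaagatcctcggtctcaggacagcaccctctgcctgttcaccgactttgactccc

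Of all 100-base stretches of the annotated transcript, 28.7% of those in Trbc1 and 30.9% of those in Trbc2 occurred without change in the other beta gene, and 8.24% of those in Tcrg-C1 occurred in Tcrg-C2 or Tcrg-C3. The share was 2.87% in Trdc, 0.613% in Tcrg-C2 and 0 in Tcrg-C4, Trac and Sox13. Of 50-base stretches, 41.1% in Trbc1, 44.0% in Trbc2, 34.2% in Tcrg-C1, 25.4% in Tcrg-C2 and 6.68% in Trdc occurred in another gene. In Tcrg-C4, Trac and Sox13 this was again 0. Reads that align to several places were left out by the counting defaults, so Trbc1, Trbc2, Tcrg-C1 and Tcrg-C2 may be undercounted and are uncertain as single genes. In Trdc the 100-base share was all with the variable segment Trdv5, which lies antisense at the same place. That share is no sign of several alignments. The 50-base share was spread over 945 other genes, so Trdc may be undercounted to a smaller degree. Tcrg-C4 carries no such limit among the gamma genes. Trdc lies over antisense neighbours along 7.84% of its exonic bases, and counts made without regard to strand cannot be told apart there.

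Library totals ran from 15721866 counts in day 4 replicate 1 to 52056896 counts. Levels are CPM, counts scaled to a fixed library total, after TMM scaling, which corrects for differences in composition between libraries. The CD45- label was checked with Ptprc, the gene of CD45 itself, which was not at 0 in any library. It ran from 24.0 to 119 CPM at steady state, 12.7 to 14.99 on day 1, 4.07 to 4.54 on day 4 and 21.6 to 606 on day 7. Stromal markers (Epcam, H2-Aa, Pecam1, Cdh5 and Pdgfra) summed to between 1082 and 2494 CPM over all libraries. The column names also carry tags (k3, kk or neither) whose meaning is not stated and which are spread unevenly over the conditions, and all day 7 names share a further tag, m0, that cannot be told apart from day 7. In bulk samples, fewer T lineage cells and less receptor RNA per cell cannot be told apart.

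Gamma constant genes kept a low level through day 4 and were far higher in day 7 replicates 2 and 3. Tcrg-C1, the constant gene of the first gamma cluster (chr13:19214103-19217024, + strand), stood at 2.74, 1.03, 2.11 and 0.436 CPM in the 4 steady state libraries, at 0.396, 0.743 and 0.838 on day 1, at 1.29, 2.14 and 2.35 on day 4 and at 1.15, 44.4 and 18.4 on day 7. Every day 4 library lay above every day 1 library, and the day 4 range fell within that of steady state. Day 7 replicate 1 lay below the lowest day 4 library, while replicates 2 and 3 lay above all others. Tcrg-C2 (chr13:19304649-19307551, - strand) stood at 1.95, 1.35, 3.87 and 0.775 CPM at steady state, at 1.39, 0.836 and 1.26 on day 1, at 2.45, 2.88 and 3.67 on day 4 and at 3.10, 92.0 and 41.2 on day 7. Tcrg-C4 (chr13:19344558-19352756, + strand) ran from 0.387 to 1.23 CPM at steady state, 0.418 to 0.622 on day 1, 0.913 to 1.48 on day 4 and 0.841 to 44.9 on day 7. All 3 gamma genes had their lowest mean on day 1 and their highest on day 7, and their ranges overlapped between each pair of neighbours in the order day 1, steady state, day 4, day 7. Counts behind these levels were small outside day 7, between 8 and 198 per library over the 3 genes. Tcrg-C3, which is no member, had at most 17 counts in a library outside day 7 and 0, 124 and 44 on day 7.

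Trdc, the single constant gene of the delta chain (chr14:54142851-54148868, + strand), did not share that order. It stood at 3.29, 2.7004, 5.40 and 1.94 CPM at steady state, at 6.33, 4.09 and 3.96 on day 1, at 0.387, 1.18 and 1.52 on day 4 and at 2.91, 70.8 and 34.8 on day 7. Its lowest condition was day 4, below every library of the other conditions, where the gamma genes were not low. Day 1 and steady state overlapped, and day 7 replicate 1 lay below all 3 day 1 libraries. The lowest day 4 value rests on 6 counts, in the library with the lowest total.

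Trac, the single alpha constant gene (chr14:54220521-54224206, + strand), was lower at each of the first 2 time points after TBI. It stood at 63.8, 14.5, 42.5 and 17.0 CPM at steady state, at 11.3, 6.64 and 6.77 on day 1, at 2.32, 1.90 and 2.30 on day 4 and at 8.84, 160 and 65.2 on day 7. Day 4, day 1 and steady state did not overlap, and day 7 spanned a range that took in steady state.

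The beta constant genes followed the same order as Trac. Trbc2 (chr6:41546730-41548352, + strand) stood at 68.1, 24.8, 56.1 and 28.5 CPM at steady state, at 12.8, 9.24 and 7.92 on day 1, at 1.36, 2.76 and 3.89 on day 4 and at 22.2, 520 and 203 on day 7. Trbc1 (chr6:41538218-41539881, + strand) ran from 20.0 to 56.7 CPM at steady state, 5.80 to 9.39 on day 1, 1.36 to 2.68 on day 4 and 18.5 to 449 on day 7. For both genes day 4 lay below day 1 and day 1 below steady state without overlap, and day 7 replicate 1 lay just below the lowest steady state library. Both beta genes moved together, with a Trbc2 to Trbc1 log2 ratio per kilobase of 0.43 ± 0.13 (SD, n = 4) at steady state and 0.41 ± 0.10 (SD, n = 3) on day 7.

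**Figure D1:**
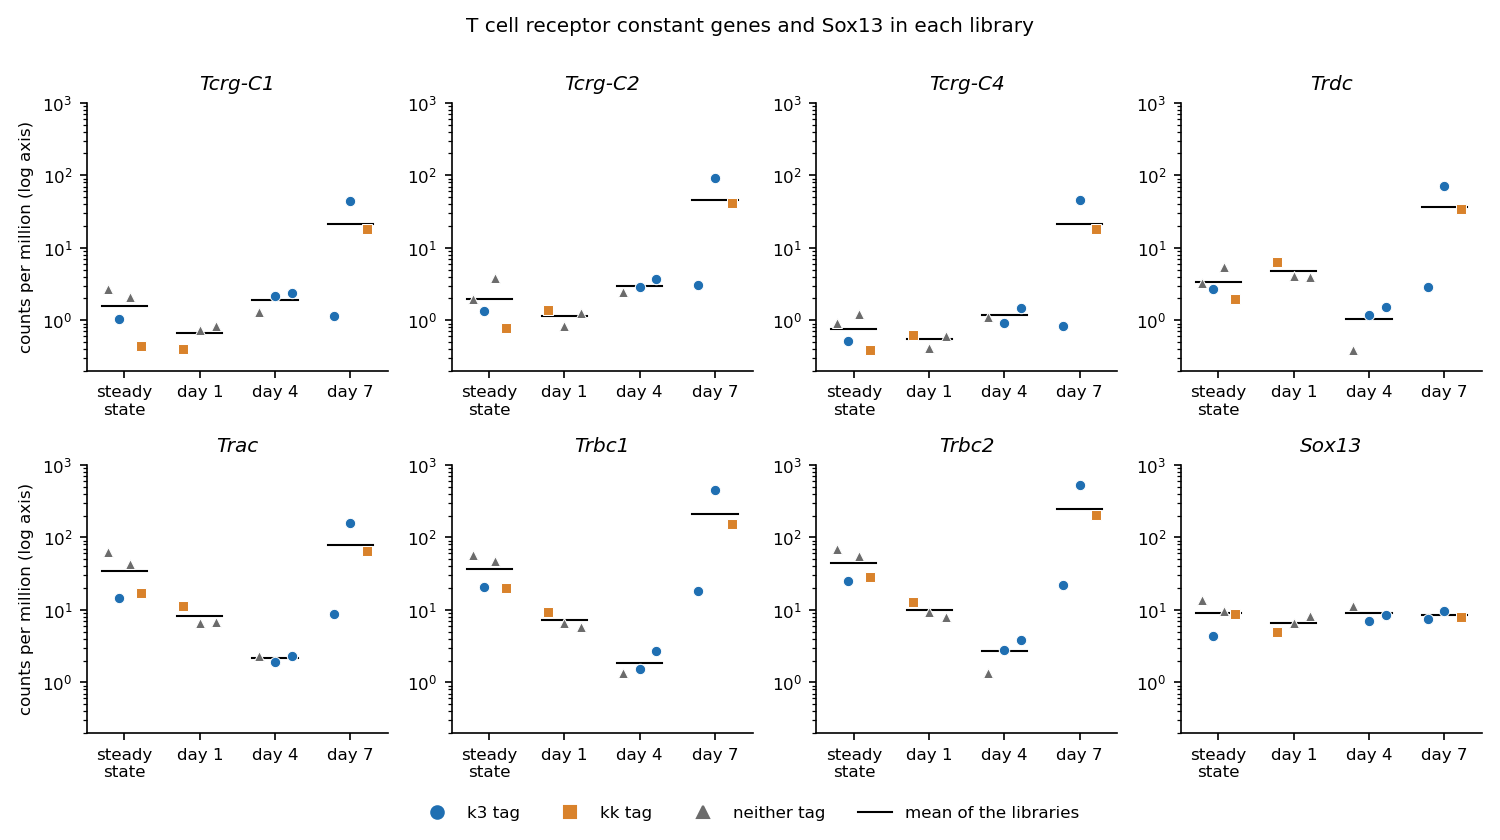
Each panel shows 1 gene, with the 4 conditions on the horizontal axis and CPM on a logarithmic vertical axis. Points are libraries, shaped and coloured by the tag in the column name, and black bars are condition means. The alpha and beta genes step down to day 4, Trdc is lowest on day 4, the gamma genes are not, and Sox13 stays between 4.35 and 13.9 CPM.

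Compared with steady state, the fit gave no member as changed on day 1. The fold changes come from the edgeR quasi-likelihood fit of all 13 libraries, with Benjamini-Hochberg adjustment over all 19984 genes and a threshold of 0.05. Its log2 fold changes were -2.07 ± 0.75 (SE) for Trac, -2.31 ± 0.77 for Trbc1 and -2.15 ± 0.76 for Trbc2, against -1.28 ± 0.89 for Tcrg-C1, -0.78 ± 0.79 for Tcrg-C2, -0.49 ± 0.86 for Tcrg-C4 and 0.52 ± 0.72 for Trdc. Of 8 members, 0 were called in either direction, where 1.68% of all genes were called higher and 0.671% lower. At an unadjusted p of 0.05 edgeR gave 3 members lower, and DESeq2 called 2 lower after adjustment. Without day 7 replicate 1, edgeR called 2 lower. That library belongs to neither condition compared.

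On day 4 the alpha and beta genes lay furthest below steady state. The log2 fold change was -3.99 ± 0.83 (SE) for Trac, -4.25 ± 0.86 for Trbc1 and -4.02 ± 0.84 for Trbc2, and -1.64 ± 0.77 for Trdc. The gamma genes lay within their error of steady state, at 0.29 ± 0.83 for Tcrg-C1, 0.58 ± 0.76 for Tcrg-C2 and 0.58 ± 0.82 for Tcrg-C4. Again 0 of 8 members were called by edgeR, with 0.05% of all genes called higher and 0.24% lower. At an unadjusted p of 0.05, 3 members were lower, and DESeq2 called 3 lower after adjustment. Leaving out day 7 replicate 1 or day 7 replicate 2 gave 3 members called lower in edgeR. Within the libraries tagged k3 (2 on day 4 and 1 at steady state) the difference in log2 CPM was 1.13 for Tcrg-C1 and -2.80 for Trac, and within those with neither tag (1 on day 4 and 2 at steady state) it was -0.90 for Tcrg-C1 and -4.49 for Trac.

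From day 1 to day 4 the fitted changes of the gamma genes and of the other constant genes had opposite signs. The gamma genes were higher, with log2 fold changes of 1.56 ± 0.93 (SE), 1.36 ± 0.84 and 1.07 ± 0.91 for Tcrg-C1, Tcrg-C2 and Tcrg-C4, with no overlap between the libraries of the 2 days. Trdc, Trac, Trbc1 and Trbc2 were lower, at -2.16 ± 0.82, -1.93 ± 0.79, -1.95 ± 0.81 and -1.87 ± 0.79, also without overlap. With 3 libraries on each day, an exact permutation p cannot fall below 0.1, so lack of overlap alone is weak. The share of all genes without overlap was not counted, here or in other comparisons. None of the 8 members was called by edgeR, with 0.355% of all genes called higher and 1.07% lower. At an unadjusted p of 0.05 edgeR gave 0 higher and 4 lower, and DESeq2 called 0 after adjustment. Whether the gamma genes differed from the others in this change was not tested.

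On day 7 the mean levels of the receptor genes stood above those of days 1 and 4. Day 7 replicate 1 did not share this throughout. It lay within or below the day 4 range for the gamma genes, and below all day 1 libraries for Trdc. Against day 4, the log2 fold change was 6.77 ± 0.98 (SE) for Trbc1, 6.51 ± 0.96 for Trbc2, 5.17 ± 0.90 for Trac and 5.07 ± 0.91 for Trdc. It was smaller for the gamma genes, at 3.45 ± 0.95 for Tcrg-C1, 3.91 ± 0.89 for Tcrg-C2 and 4.18 ± 0.96 for Tcrg-C4. The fit called 6 of 8 members higher and 0 lower, the exceptions being Tcrg-C1 and Sox13, with 2.77% of all genes called higher and 1.13% lower. The count fell to 0 without day 4 replicate 2 and to 0 without day 4 replicate 3, where an unadjusted p of 0.05 still gave 7, and it was 4 without day 4 replicate 1, day 7 replicate 2 or day 7 replicate 3.

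Against day 1, the fold changes of the gamma genes were the largest, at 5.01 ± 1.04 (SE), 5.28 ± 0.96 and 5.25 ± 1.02 on the log2 scale for Tcrg-C1, Tcrg-C2 and Tcrg-C4. Trbc1 and Trbc2 stood at 4.83 ± 0.89 and 4.64 ± 0.87, Trac at 3.24 ± 0.82 and Trdc at 2.91 ± 0.82. The fit called 7 of 8 members higher and 0 lower, with 3.68% of all genes called higher and 4.45% lower. The count was 3 without day 1 replicate 1, 4 without day 1 replicate 2, 4 without day 1 replicate 3 and 4 without day 7 replicate 2. Day 1 and day 7 overlapped for Trdc and Trac and not for the gamma and beta genes.

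Against steady state, Tcrg-C4, Tcrg-C2, Tcrg-C1 and Trdc had the largest fold changes on day 7 among the 7 constant genes, and Trac the smallest. Log2 fold changes were 3.73 ± 0.86 (SE), 4.50 ± 0.81 and 4.76 ± 0.87 for Tcrg-C1, Tcrg-C2 and Tcrg-C4, 3.43 ± 0.75 for Trdc, 2.52 ± 0.72 and 2.48 ± 0.71 for Trbc1 and Trbc2, and 1.18 ± 0.69 for Trac. With edgeR 0 of 8 members were called, where 0.005% of all genes were called higher and 0% lower. At an unadjusted p of 0.05 edgeR gave 6 higher, DESeq2 called 6 higher after adjustment, and edgeR called 6 higher without day 7 replicate 1. That library held all 7 constant genes within or below the steady state range, while day 7 replicates 2 and 3 held all 7 above it. The comparisons with steady state share their control libraries.

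**Figure D2:**
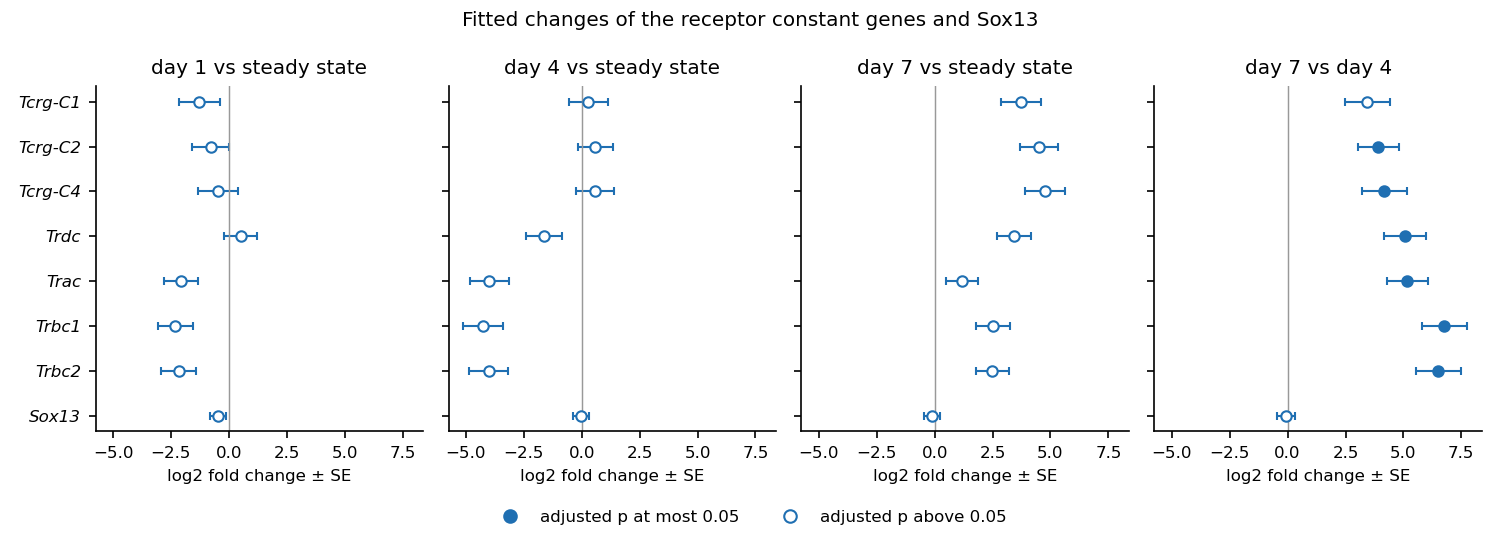
Log2 fold changes from the edgeR fit are shown on the horizontal axis with bars of 1 standard error, for the 8 genes in each of 4 comparisons. Filled points have an adjusted p of 0.05 or less, which occurs here in day 7 against day 4 for 6 genes. The gamma genes sit near 0 on day 4 against steady state, where Trac, Trbc1 and Trbc2 sit near -4.

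Ratios within a library do not depend on how libraries are scaled against each other. They are log2 ratios of counts per kilobase of exon, with 0.5 added to each count, and are given with no test since the genes were selected on these levels. The summed gamma genes stood below the summed beta genes by log2 ratios of -4.84, -4.34, -4.20 and -5.25 in the 4 steady state libraries, a geometric mean of 1 to 25.2. On day 1 the ratios were -3.56, -3.33 and -2.71 (1 to 9.21), on day 4 they were 0.46, 0.08 and -0.19 (1.08 to 1), and on day 7 they were -3.36, -2.80 and -2.58 (1 to 7.53). By this sum gamma RNA was about level with beta RNA in every day 4 library, and in no library of another condition. Trbc1 and Trbc2 share more of their 100-base stretches with another gene (28.7% and 30.9%) than the gamma genes do (at most 8.24%). Beta may therefore be undercounted more than gamma, so how near the chains were to level is uncertain. With Tcrg-C4, the gamma gene without shared stretches, as the only gamma gene, day 4 was again the highest. The mean log2 ratio was then -7.14 at steady state, -5.39 on day 1, -2.35 on day 4 and -5.23 on day 7. This sets a single gamma gene against both beta genes, so it cannot show whether the chains were level. In the summed ratio all day 7 libraries, replicate 1 included, lay above all steady state libraries and overlapped those of day 1.

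The day 4 ratio stood apart within tags as well. Among k3 libraries the mean log2 ratio of gamma to beta was -4.34 in 1 steady state library, -0.05 in 2 of day 4 and -3.08 in 2 of day 7. Among libraries with neither tag it was -4.52 in 2 of steady state, -3.02 in 2 of day 1 and 0.46 in 1 of day 4.

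The ratio of delta to alpha moved differently. It was -6.32, -4.47, -5.02 and -5.16 on the log2 scale at steady state (1 to 37.9), -2.88, -2.74 and -2.82 on day 1 (1 to 7.03), -4.54, -2.73 and -2.64 on day 4 (1 to 9.87) and -3.65, -3.22 and -2.95 on day 7 (1 to 9.68). It was higher than at steady state in all day 1 and all day 7 libraries, and day 4 replicate 1, with 6 counts of Trdc, fell into the steady state range. Thus Trdc relative to Trac lay above steady state from day 1, apart from day 4 replicate 1, although Trdc itself was lowest in CPM on day 4. The gamma to beta ratio was also above steady state on day 1 and stood out on day 4.

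Gamma to delta ratios showed that the chains of the gamma-delta receptor did not keep step. Their mean log2 ratio was 2.32 ± 0.43 (SD, n = 4) at steady state, 1.08 ± 0.42 (n = 3) on day 1, 4.78 ± 0.71 on day 4 and 3.16 ± 0.27 on day 7. Libraries of different conditions did not overlap in this ratio. The beta to alpha ratio was steadier, at 1.74 ± 0.30 at steady state, 1.47 ± 0.16 on day 1 and 1.36 ± 0.67 on day 4, and lay higher on day 7 (2.80 ± 0.20) than in any library of the other conditions.

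**Figure D3:**
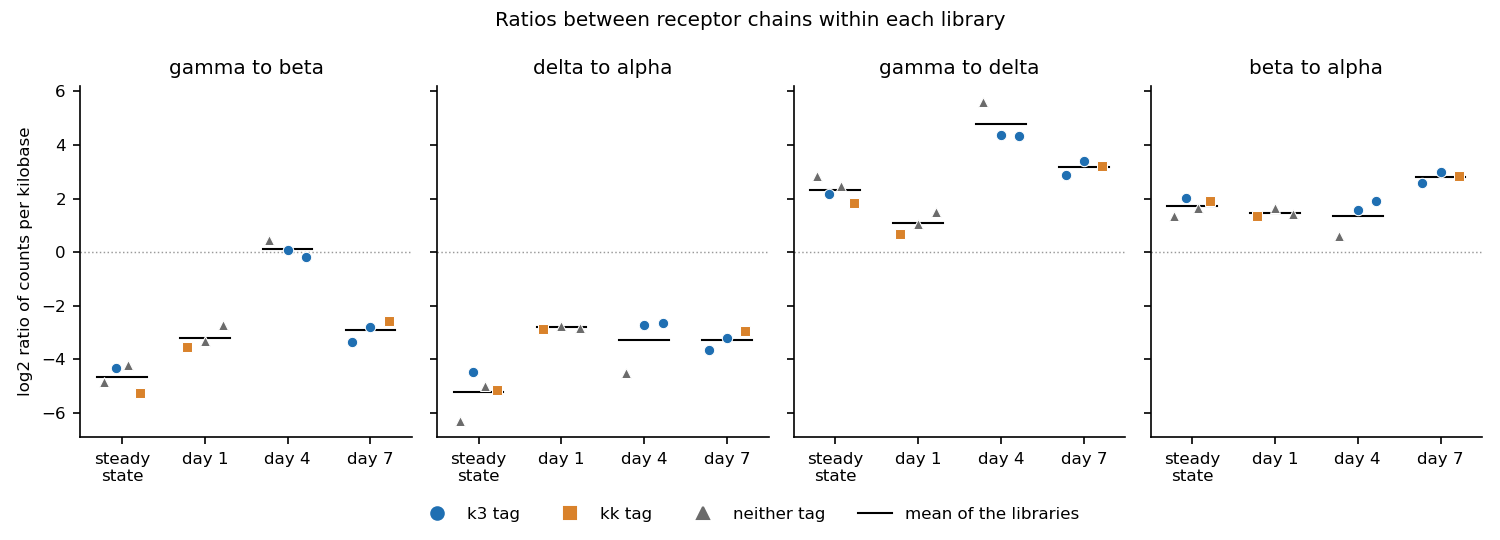
Points are libraries and bars are means of the log2 ratio of counts per kilobase, with the dotted line at equal levels. Gamma to beta is near 0 only in the 3 day 4 libraries, and gamma to delta is highest there.

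Variable segments give a second reading of each locus that the choice of members did not use. It comes from the same libraries, so it is not independent of the first. For gamma, 6 variable segments summed to 9, 6, 5 and 1 counts at steady state, 1, 3 and 4 on day 1, 2, 16 and 10 on day 4 and 13, 429 and 136 on day 7. Per 100 counts of the gamma constant genes this was 3.30 ± 1.52 (SD, n = 4) at steady state, 3.75 ± 2.95 (n = 3) on day 1, 3.29 ± 1.25 on day 4 and 4.95 ± 0.26 on day 7. The day 4 libraries did not stand apart in this measure, although it rests there on 28 variable counts beside 818 constant counts. Tcrg-V4 (at most 13 counts in a library outside day 7, and 5, 203 and 55 on day 7) and Tcrg-V1 (at most 8, and 6, 172 and 65) had the most counts. Tcrg-V4 was the only gamma segment tested and was called higher on day 7 against day 1, where 3.68% of all genes were called higher. Outside day 7 it reached 10 counts only in day 4 replicate 2, with 13. Tcrg-V4 thus passed the filter largely through day 7 replicates 2 and 3, where it was high, so the call supports nothing on its own.

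At the delta locus the variable counts turned on a single segment, Trdv4. The 6 delta segments summed to 48, 59, 44 and 18 counts at steady state, 25, 12 and 27 on day 1, 18, 100 and 70 on day 4 and 78, 225 and 119 on day 7. Per 100 counts of Trdc this was 17.5 to 54.6 at steady state, 11.2 to 14.3 on day 1, 85.4 to 300 on day 4 and 6.51 to 54.9 on day 7. Day 4 lay above every other library and day 1 below every steady state library, and the value of 300 rests on 6 counts of Trdc. Trdv4 alone had 28, 58, 28 and 14 counts at steady state, 24, 8 and 27 on day 1, 18, 99 and 70 on day 4 and 63, 19 and 28 on day 7. Its level on day 4, 1.16, 1.74 and 1.296 CPM, overlapped that of steady state (0.602 to 1.45 CPM), while Trdc was below steady state in all 3 day 4 libraries. The other 5 segments, set apart after these values were seen, had 20, 1, 16 and 4 counts at steady state, 1, 4 and 0 on day 1, 0, 1 and 0 on day 4 and 15, 206 and 91 on day 7. Without Trdv4 the order was turned, with 41 variable counts beside 549 of Trdc at steady state, 5 beside 501 on day 1, 1 beside 155 on day 4 and 312 beside 4879 on day 7. Trdv1, the segment with the next most counts, had 9, 0, 9 and 2 at steady state, at most 2 on day 1, 0 in every day 4 library, which allows up to 3 counts in each, and 8, 96 and 47 on day 7.

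Beta variable segments kept a like share of their constant genes in every condition. The 35 beta segments gave 29.4 ± 2.21 counts per 100 constant counts (SD, n = 4) at steady state, 31.3 ± 3.22 (n = 3) on day 1, 26.9 ± 6.38 on day 4 and 27.0 ± 1.58 on day 7. Of these, 18 passed the filter, and all 18 were called higher on day 7 against day 1 and against day 4, Trbv13-2 and Trbv12-2 having the most counts. Of all genes, 3.68% were called higher against day 1 and 2.77% against day 4. How the calls of variable segments hold when a library is left out was not examined. Trbv13-2 had 45 to 221 counts at steady state, 11 to 37 on day 1, 4 to 14 on day 4 and 62 to 1595 on day 7. The alpha segments, with 69 of 118 detected, gave 12.01 ± 1.52 counts per 100 counts of Trac at steady state, 11.2 ± 1.499 on day 1, 11.2 ± 6.15 on day 4 and 15.7 ± 0.84 on day 7. All 3 day 7 libraries (14.8 to 16.5) lay above every steady state and day 1 library, and day 4 ran from 5.56 to 17.7. Of 9 alpha segments tested, 2 were called higher on day 7 against day 1 (Trav14-3 and Trav17) and 5 against day 4 (with Trav13-1, Trav14-2 and Trav3-3). Trav17 and Trav13-1 had the most counts, 3 to 16 and 0 to 14 at steady state and 9 to 221 and 12 to 64 on day 7.

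**Figure D4:**
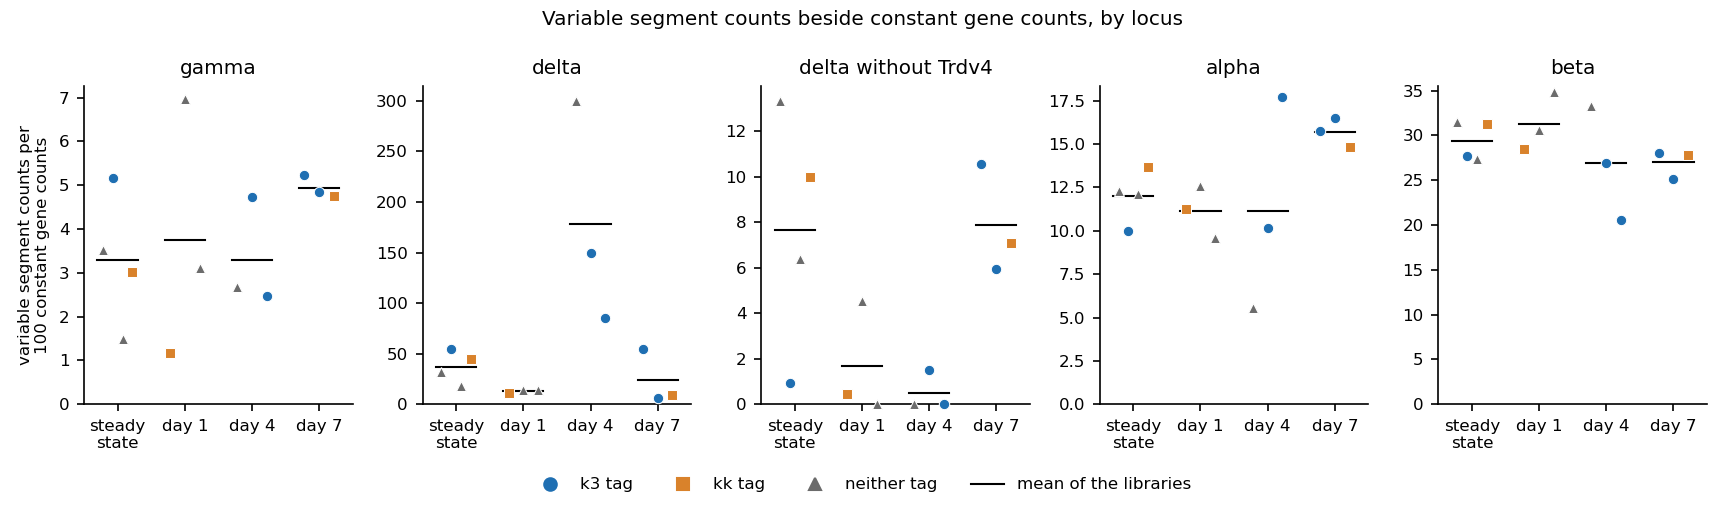
Counts of variable segments per 100 counts of the constant genes of the same locus are plotted for each library, with black bars at the condition mean. Delta is shown with all 6 segments, where day 4 is highest (85.4 to 300), and without Trdv4, where day 4 runs from 0 to 1.49. The vertical axes differ between panels.

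Sox13, a transcription factor that interleukin-17 producing gamma-delta cells need, did not follow the receptor genes. The gene lies at chr1:133382303-133424377 on the - strand. It stood at 13.9, 4.35, 9.64 and 8.86 CPM at steady state, at 4.95, 6.64 and 8.11 on day 1, at 11.3, 7.08 and 8.37 on day 4 and at 7.59, 9.79 and 7.999 on day 7. All conditions overlapped, and it was not called in any of the 6 comparisons by edgeR or DESeq2. Its log2 fold change on day 7 against day 4 was -0.07 ± 0.37 (SE), although the gamma constant genes were higher there by 3.45 to 4.18. In day 7 replicate 2, where the gamma genes peaked, Sox13 stood at 9.79 CPM. Bulk RNA does not show which cells held Sox13, and whether gamma-delta cells were its source was not tested.

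Among other genes of the gamma-delta lineage, edgeR called 2 of 10 tested higher on day 7 against day 1 and 1 against day 4. Of all genes tested, 3.68% and 2.77% were called higher in these comparisons. Of 12 on the list, 10 passed the filter and Il17a and Il17f, the interleukin-17 cytokine genes, did not. Il17a had 0 counts in all libraries of days 4 and 7, which allows up to 3 counts in each. Cd163l1, also known as Scart1, was called higher on day 7 against day 1 (log2 fold change 4.16 ± 1.12 (SE), edgeR adjusted p = 0.0399), with 0.349 to 6.17 CPM on day 7 and 0.139 to 0.189 on day 1. Its neighbour in kind 5830411N06Rik, or Scart2, was called higher on day 7 against day 1 and against day 4 (4.69 ± 1.19 for the latter, edgeR adjusted p = 0.0455). These WC1-like scavenger receptors mark subsets of gamma-delta cells. Other genes of the list went the other way. Ccr6, Il23r and Zbtb16 were lower on day 7 against day 1, at -2.21 ± 0.91 (SE), -1.79 ± 0.71 and -0.92 ± 0.41, and were not called. At an unadjusted p of 0.05 edgeR gave 2 genes of the list higher and 3 lower on day 7 against day 1. Against day 4 it gave 3 higher and 1 lower. Id3 and Etv5, transcription factors of the gamma-delta lineage that other cell types also use, had the highest mean levels on the list. Id3 stood at 283 ± 20.9 CPM (SD, n = 4) at steady state and 403 ± 74.1 (n = 3) on day 4, and neither gene was called by edgeR in any comparison. In the other 4 comparisons edgeR called 0 genes of the list, with 0 at an unadjusted p of 0.05 for day 1 against steady state, 1 higher for day 4 against steady state, 2 higher and 3 lower for day 7 against steady state and 1 higher for day 4 against day 1, where DESeq2 called 0, 0, 1 higher with 1 lower, and 1 higher. The 2 calls against day 1 became 0 without any 1 day 1 library, without day 4 replicate 3 or without day 7 replicate 2 or 3, and 1 without day 4 replicate 2 or the PBS day 7 replicate 1 library. The 1 call against day 4 became 0 without any 1 library of day 1 or day 4, without day 7 replicate 2 or 3 or without the PBS day 7 replicate 1 library, 3 without day 7 replicate 1 and 2 without the PBS day 1 replicate 2 library. The list as a whole had a median log2 fold change of 0.11 on day 7 against day 4, where that of all genes was 0.11.

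The CD3 chains carry the signal of both receptor types. Summed over Cd3e, Cd3d, Cd3g and Cd247, they gave 47.6 to 159 CPM at steady state, 20.1 to 28.1 on day 1, 13.6 to 21.5 on day 4 and 46.9 to 915 on day 7. Cd3e, the epsilon chain, was 34.8 ± 20.5 CPM (SD, n = 4) at steady state, 8.65 ± 1.35 (n = 3) on day 1, 3.87 ± 0.49 on day 4 and 164 ± 151 on day 7. All 4 chains were called higher on day 7 against day 1 and against day 4, as were 3.68% and 2.77% of all genes. Log2 fold changes against day 4 ran from 3.42 ± 0.78 (SE) for Cd247 to 5.41 ± 0.86 for Cd3d. The 4 calls against day 4 became 0 without day 4 replicate 2 or 3, and the 4 against day 1 became 2 without day 1 replicate 1 or 3. In the other 4 comparisons edgeR called 0 chains. At an unadjusted p of 0.05, 4 were lower on day 1 and 4 lower on day 4 against steady state, 4 were higher on day 7 against steady state, and 0 differed between days 4 and 1, where DESeq2 called 2, 3, 3 and 0. Without day 7 replicate 1 edgeR called 3 lower on day 1, 3 lower on day 4 and 4 higher on day 7 against steady state.

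Genes of alpha-beta thymocyte stages showed the widest swing. The list holds 11 genes of recombination, the pre-receptor, the coreceptors and the double-positive stage. On day 4, 5 fell against steady state (Rag1, Cd8b1, Cd8a, Cd4 and Ccr9) and 3 against day 1. The shares of all genes called lower in these comparisons were 0.24% and 1.07%. Cd8b1, the beta chain of the CD8 coreceptor, went from 64.2 ± 32.6 CPM (SD, n = 4) at steady state to 21.8 ± 3.94 (n = 3) on day 1, 0.301 ± 0.257 on day 4 and 359 ± 340 on day 7. Cd8a, its partner chain, had the same order, with 46.3 ± 23.1 CPM at steady state and 0.301 ± 0.150 on day 4. Dntt, the enzyme that adds bases at joints, stood at 46.7 ± 26.6 CPM at steady state and 4.84 ± 1.86 on day 4 and was not called there. All 11 rose on day 7 against day 1 and against day 4, with median log2 fold changes of 4.17 and 7.55. Among all genes, 3.68% and 2.77% were called higher there. The 11 calls against day 1 became 3 without day 1 replicate 1 or 3 and 4 without day 1 replicate 2 or day 7 replicate 2, and the 11 against day 4 became 2 without day 4 replicate 2 and 3 without day 4 replicate 3. The 5 that fell against steady state became 2, 0 and 1 without day 4 replicate 1, 2 and 3, and 9 and 8 without day 7 replicate 1 and 2. The 3 that fell against day 1 became 0 and 1 without day 4 replicate 2 and 3, and 7 and 5 without day 7 replicate 1 and 2.

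Signalling and T cell identity genes used by both receptor types had their lowest median sum on day 4. The sums ran from 42.2 to 96.4 CPM on day 4 and from 80.5 to 163 on day 1, so these days overlapped. Of 12, 11 rose on day 7 against day 1 and against day 4, where 3.68% and 2.77% of all genes were called higher. The exception was Fyn. Cd5 fell on day 4 against steady state (-5.54 ± 0.97 (SE), edgeR adjusted p = 0.0319), where 0.24% of all genes were called lower. Lck, the kinase that phosphorylates the CD3 chains, was 82.0 ± 47.0 CPM (SD, n = 4) at steady state, 23.2 ± 1.42 (n = 3) on day 1, 8.75 ± 2.47 on day 4 and 474 ± 475 on day 7. Tcf7, a transcription factor of T cell identity, went from 91.4 ± 50.3 CPM to 20.8 ± 2.73, 5.78 ± 1.22 and 442 ± 454 over the same conditions. The 11 calls against day 1 became 0 without day 1 replicate 1, 4 without day 1 replicate 2 or 3 and 5 without day 7 replicate 2. The 11 against day 4 became 0 without day 4 replicate 2 or 3 and 7 without day 7 replicate 2. The call of Cd5 became 0 calls without any 1 day 4 library, without day 1 replicate 2 or 3 or without the PBS day 1 replicate 2 or PBS day 7 replicate 1 library, while 11 genes were called lower without day 7 replicate 1 and 3 without day 7 replicate 2 or the PBS day 4 replicate 2 library.

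Innate lymphoid genes, which could mark other CD3-poor lymphocytes, were steadier in summed level than the CD3 chains and the alpha-beta stage genes. Gene by gene they leaned higher on day 7. Their median log2 fold change was 1.69 against day 4 and 1.09 against day 1, where that of all genes was 0.11 and 0.05. Of 14, 13 were tested, and Id2, a factor of innate lymphoid cells also used in stroma, was called higher on day 4 against day 1 (1.22 ± 0.27 (SE), edgeR adjusted p = 0.0438). Their summed level ran from 182 to 254 CPM at steady state, 122 to 157 on day 1, 196 to 207 on day 4 and 200 to 271 on day 7, most of it from Rora and Id2. The call became 0 without any 1 library of day 1 or day 4, without day 7 replicate 1 or 3 or without the PBS day 7 replicate 2 library. On day 7 against day 4 edgeR called 0, with 5 higher at an unadjusted p of 0.05 and 2 called by DESeq2, and 3 were called higher without day 7 replicate 1. On day 7 against day 1 it called 0, with 6 higher and 2 lower at an unadjusted p of 0.05 and 4 called higher by DESeq2, and 5 were called higher without day 7 replicate 1 and 1 without the PBS day 4 replicate 2 library. Nkg7 and Klrb1c, genes of cytotoxic lymphocytes, stood at 8.07 ± 8.74 and 1.78 ± 2.08 CPM on day 7 and at 1.35 ± 0.285 and 0.377 ± 0.135 on day 4. B cell markers summed to 2.36 to 15.2 CPM over all libraries and myeloid markers to between 34.95 and 133, with 1 call among them in the 6 comparisons, Pax5 lower on day 7 against day 1, which was lost without day 1 replicate 1 or 2, day 4 replicate 3 or day 7 replicate 1 or 2. Of 4 general hematopoietic markers, Ptprc and Coro1a rose on day 7 against day 1 and against day 4. Log2 fold changes were 4.39 ± 0.92 (SE) and 6.03 ± 1.00 for Ptprc, where 3.68% and 2.77% of all genes were called higher. These 2 calls became 1 without any 1 day 1 library or day 7 replicate 2, and against day 4 they became 0 without day 4 replicate 2 or 3 and 4 without day 7 replicate 1. Of the stromal markers, H2-Aa fell on day 7 against day 4, a call that was lost without day 1 replicate 2 or 3, any 1 day 4 library or day 7 replicate 2 or 3. The part of these other cells in the receptor levels was not tested.

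**Figure D5:**
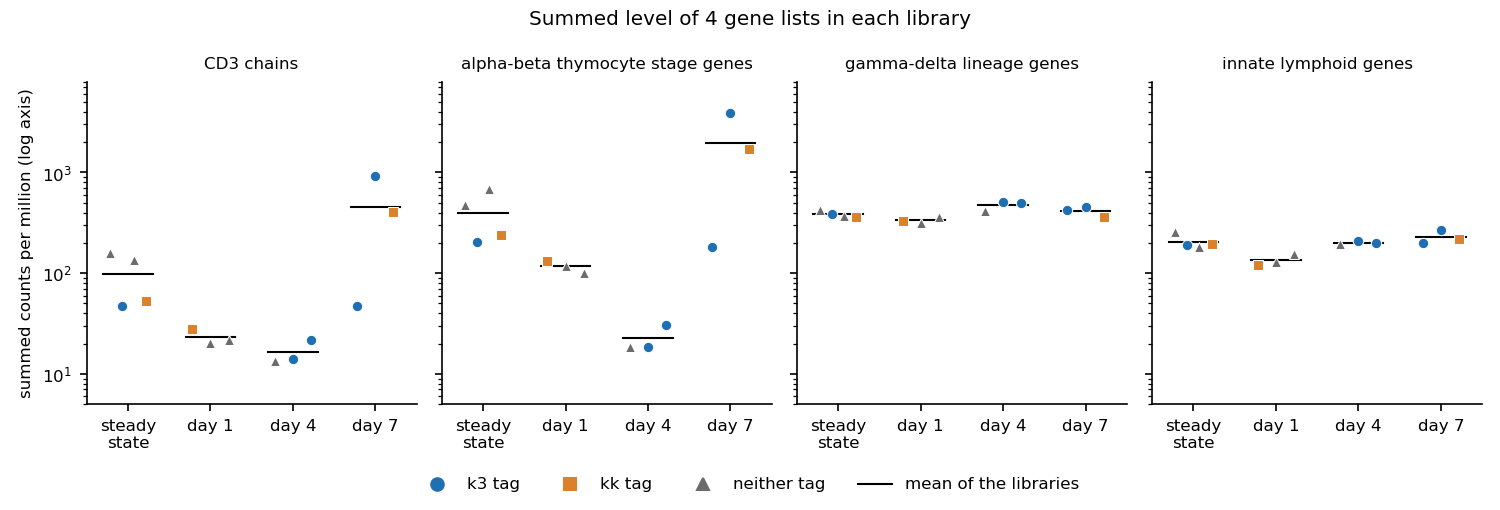
Summed CPM of 4 gene lists are plotted on a logarithmic axis for each library, with bars at the condition mean. The CD3 chains and the alpha-beta stage genes are lowest on day 4, and the gamma-delta lineage list runs from 317 to 504 CPM, most of it from Id3, and the innate lymphoid list from 122 to 271, most of it from Rora and Id2.

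Genes whose centred log2 CPM lay closest to a member over the 13 libraries were found among 14589 genes with a mean of at least 1 CPM. Closeness is the root mean square log2 difference, given as a description. For Tcrg-C1 these were Tcrg-C2 (0.55), Tcrg-C4 (0.55), Dna2 (0.64), Gm4632 (0.74) and Sytl3 (0.75), while Trdc ranked 616th at 1.45. For Trac they were Nckap1l (0.37), Arhgap30 (0.38), Ptprc (0.40), Trbv12-2 (0.43) and Dok2 (0.44), with Trbc1 at 0.64. For Trdc they were 5830418P13Rik (0.66), BC147527 (0.70), Endou (0.71), Capn3 (0.73) and Cd84 (0.74), and no other member came within 1.12. For Sox13 they were Cables2 (0.17), Lonrf1 (0.20), Prdm16 (0.21), Lmo7 (0.22) and Mccc1os (0.22), and the receptor genes ranked 14248th or lower.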

How the data were processed

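The deposited table holds raw gene counts for 13 libraries. The submitters' processing notes name Trimmomatic 0.38 for trimming, STAR 2.7.0e for alignment and featureCounts 1.6.3 for counting, and the authors used GRCm38.p5 with GENCODE M12 and default settings, which ignore strand and leave out reads with several alignments. Counts were filtered with filterByExpr (at least 10 counts in enough libraries), scaled by TMM and fitted with edgeR 4.0.16 in R 4.3.3 (quasi-likelihood, 1 term per condition). The standard error is the fold change over the square root of F. The members and gene lists were chosen with earlier results of these data known. Named genes were all members, the CD3 chains, Ptprc, in each other lymphoid list the 2 with the highest mean CPM and the 2 with the largest fold change on day 7 against day 4, the 2 variable segments of each locus with the most counts, and the 5 genes most like Tcrg-C1, Trdc, Trac and Sox13. Others named (Fyn, Il17a, Il17f, Tcrg-C3, Ccr6, Il23r, Zbtb16 and the genes behind counts of 5 or fewer) were chosen after their values were seen. Steady state columns carry PBS days and numbers that could not be matched to the label replicates. The fit was tested on simulated data. DESeq2 1.42.0 was an alternative. Of 53379 identifiers, 53274 had a symbol. Alternatives were RLE scaling, other filters, the 2 conditions alone, the tag or replicate number as a covariate, and leaving out each library. Some genes of the lists are not reported here by name.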

Additional observations from a re-analysis of the deposited data

How the results depend on the processing

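Counts of called members depended on the settings. Day 1 against steady state gave 2 lower with only the 2 conditions compared and with DESeq2, and 0 to 2 when a library was left out. Day 4 against steady state gave 3 lower with no filter, with only the 2 conditions and with DESeq2, and 0 to 3 when a library was left out. Day 7 against steady state gave 6 higher with no filter and with DESeq2, and 0 to 6. Day 4 against day 1 gave 1 lower with only the 2 conditions. Day 7 against day 1 gave 4 higher with at least 10 counts in every library, which leaves out 3 members, and 3 to 7 when a library was left out. Day 7 against day 4 gave 3 higher with only the 2 conditions, 2 with the replicate block and 0 to 7 when a library was left out. Replicate numbers did not pair the libraries (mean correlation of same-numbered deviations -0.474 for days 1 and 4, -0.140 for days 1 and 7 and 0.0757 for days 4 and 7), and the block changed no other count of members by over 1.5 times. The cause of these differences was not tested. Uncalled values near 0 changed sign. Sox13 at day 4 against steady state was 0.0284 with RLE, 0.0638 with only the 2 conditions, 0.22 with the tag as a covariate, 0.0259 with DESeq2 and -0.28 to 0.32 when a library was left out. Against steady state at day 7 it was 0.36 with the tag and -0.35 to 0.14, and at day 7 against day 4 it was 0.14 with the tag and -0.26 to 0.0249. Tcrg-C1 at day 4 against steady state was -0.00694 (without the PBS day 7 replicate 2 library) to 0.78. Without length scaling the delta to alpha log2 ratio was -3.20, -0.77, -1.26 and -1.23 at steady state and days 1, 4 and 7, gamma to beta at day 4 was 0.50, and gamma plus delta to alpha plus beta was -3.88, -1.81, 0.10 and -2.23. With Tcrg-C4 alone as gamma, gamma to beta was -7.14, -5.39, -2.35 and -5.23, and the combined ratio -6.44, -4.17, -2.56 and -4.77. With Tcrg-C1 and Tcrg-C2 as gamma the combined ratio at day 4 was -0.60. Day 4 kept the highest gamma to beta ratio under each of these. Chosen after seeing the data, leaving out Trdv4 took the delta variable counts per 100 counts of Trdc from 37.3 to 7.66 at steady state, 13.03 to 1.66 on day 1, 178 to 0.498 on day 4 and 23.6 to 7.87 on day 7. Depth limits the value of Trdc in day 4 replicate 1, which rests on 6 counts.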
